A study of Mus musculus with 36 samples.

Results

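The 3 latrophilins (Adgrl1, Adgrl2 and Adgrl3), the 4 teneurins (Tenm1, Tenm2, Tenm3 and Tenm4) and the 3 FLRTs (Flrt1, Flrt2 and Flrt3) were followed across hippocampal and entorhinal tissue of the mouse. They were chosen by symbol, as 10 of the 37315 genes in the count table, and all 10 were found and passed the filter on low counts in every fit. The 36 libraries held polyA RNA from the hippocampal fields CA1 and CA3, the lateral entorhinal cortex (LEC) and the medial entorhinal cortex (MEC). All mice were wild type on the C57BL/6 background, were housed singly and had been handled before the experiment, and their age is not given in the sources used here. Each region had 3 home cage libraries, 3 from animals that explored a context and 3 from animals that received foot shock (the fear group), and tissue was collected 90 minutes after the behaviour. The labels do not say which libraries share a mouse, so each p-value reflects only the variation among the libraries, which may be technical.

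Latrophilins are adhesion G protein-coupled receptors that sit mainly in the postsynaptic membrane of excitatory synapses. Teneurins and FLRTs are transmembrane proteins that bind the extracellular part of latrophilins across the synaptic cleft, and some latrophilins are known to need both ligands to specify synapses. In the hippocampus, latrophilin-2 and latrophilin-3 are known for marking different dendritic domains of CA1 pyramidal cells, those reached by entorhinal axons and by CA3 axons respectively, and teneurin-3 and latrophilin-2 are known for mutual repulsion in the wiring of CA1 with the subiculum and the entorhinal cortex. FLRTs also bind Unc5 receptors, which repel axons and migrating cells.

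In the GENCODE M21 annotation of GRCm38, Adgrl1 (ENSMUSG00000013033) lies at chr8:83900105-83941954, Adgrl2 (ENSMUSG00000028184) at chr3:148815583-148990555 and Adgrl3 (ENSMUSG00000037605) at chr5:81020138-81825133. Tenm1 (ENSMUSG00000016150) lies at chrX:42527866-43429126, Tenm2 (ENSMUSG00000049336) at chr11:36006656-37235964, Tenm3 (ENSMUSG00000031561) at chr8:48227682-48843951 and Tenm4 (ENSMUSG00000048078) at chr7:96171246-96911093. Flrt1 (ENSMUSG00000047787) lies at chr19:7092001-7105729, Flrt2 (ENSMUSG00000047414) at chr12:95692226-95785215 and Flrt3 (ENSMUSG00000051379) at chr2:140650914-140671469. Counts were taken over whole genes, so isoforms are not distinguished.

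Library totals ran from 21871412 to 68974340 counts (median 28098007). Among the members Flrt1 had the fewest counts, 104 to 2050 per library, and Adgrl1 the most, 5184 to 30102. Markers of the labelled regions were present: Wfs1, a CA1 pyramidal marker, averaged 338 CPM in CA1 (read counts scaled to the library total after TMM, a normalization for library composition) and 45.5 in CA3. Grik4, a CA3 kainate receptor subunit, averaged 125 CPM in CA3 and 23.1 in CA1. Tbr1, a cortical transcription factor, averaged 81.6 CPM in LEC and 105 in MEC against 24.9 in CA1 and 33.6 in CA3. Others went against their list: Coch, of the CA3 list, averaged 2.69 CPM in CA3 and 26.5 in LEC, Lmo3, of the cortical list, 281 in CA1 and 104 in MEC, and Fezf2, of the same list, 21.3 in CA1, 18.2 in LEC and 19.8 in MEC. Markers of dentate granule cells (6 genes) summed to between 34.0 and 441 CPM in the CA1 libraries and 46.3 and 234 in the CA3 libraries, against at most 83.5 in the entorhinal libraries.

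Of the members, 9 had 12 RefSeq promoter windows on GRCm38.p6. Tenm2 and Tenm4 differed between regions and their windows hold no annotated exon, but those windows are not shown. The windows of Flrt2 and Flrt3, which also hold no annotated exon, are shown as examples of genes that differed between groups. Each is the 250 bases before the RefSeq start, on the gene's strand, at chr12:95691976-95692225 (plus strand) for Flrt2 and chr2:140671477-140671726 (minus strand) for Flrt3. For Tenm3, whose window includes 32 exon bases, only the 30 bases around a cyclic AMP response element (CRE) are shown, at chr8:48674735-48674764 (minus strand), and the capitals mark that element.
Flrt2: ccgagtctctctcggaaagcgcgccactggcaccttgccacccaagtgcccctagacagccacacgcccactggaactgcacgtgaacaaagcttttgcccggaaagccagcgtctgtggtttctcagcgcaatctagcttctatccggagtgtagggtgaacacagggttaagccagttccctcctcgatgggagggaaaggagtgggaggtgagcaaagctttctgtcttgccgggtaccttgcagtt
Flrt3: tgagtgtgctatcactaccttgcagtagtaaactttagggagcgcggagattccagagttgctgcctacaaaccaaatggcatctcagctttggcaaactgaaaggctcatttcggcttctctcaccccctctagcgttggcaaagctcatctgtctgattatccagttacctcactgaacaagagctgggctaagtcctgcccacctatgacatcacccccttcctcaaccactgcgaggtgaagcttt
Tenm3: gatgctttcgcTGACGTCAtgccaaccttt
The CRE (TGACGTCA), the binding sequence of the activity-regulated factor CREB, was in 1.5% of all 32851 windows of this length and, among the 12 member windows, in that of Tenm3. The letters searched on both strands were also those of AP-1 (TGANTCA, in 6.7% of windows), the GC box (GGGCGG, 32.7%), the CCAAT box (CCAAT, 33.8%) and the TATA box (TATAAA, 12.4%), none of which the Flrt2 and Flrt3 windows hold. Each of these windows holds 2 E-boxes (CANNTG, 66.2% of windows), left in lower case. A match is a match of letters in this window and was not tested as a site. The RefSeq start used for Tenm3 lies 169261 bases inside the gene, at the start of a shorter annotated transcript.

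Adgrl1 was the most abundant member per length in every region. In CPM per kilobase of exon its mean level was 43.1 for CA1, 41.0 for CA3, 43.0 for LEC and 45.7 for MEC, at percentiles 94.9, 94.3, 94.9 and 95.4 of the genes tested. The next most abundant per length were Tenm3 and Tenm2 in MEC (19.6 and 17.9) and Flrt3 in CA3 (15.2). The least abundant per length were Flrt1 in CA3 (1.28), Adgrl2 in CA3 (1.54), Flrt1 in CA1 (1.91) and Tenm1 in CA3 (1.92). The plot of levels by library shows all 36 values of each gene.

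**Figure D1:**
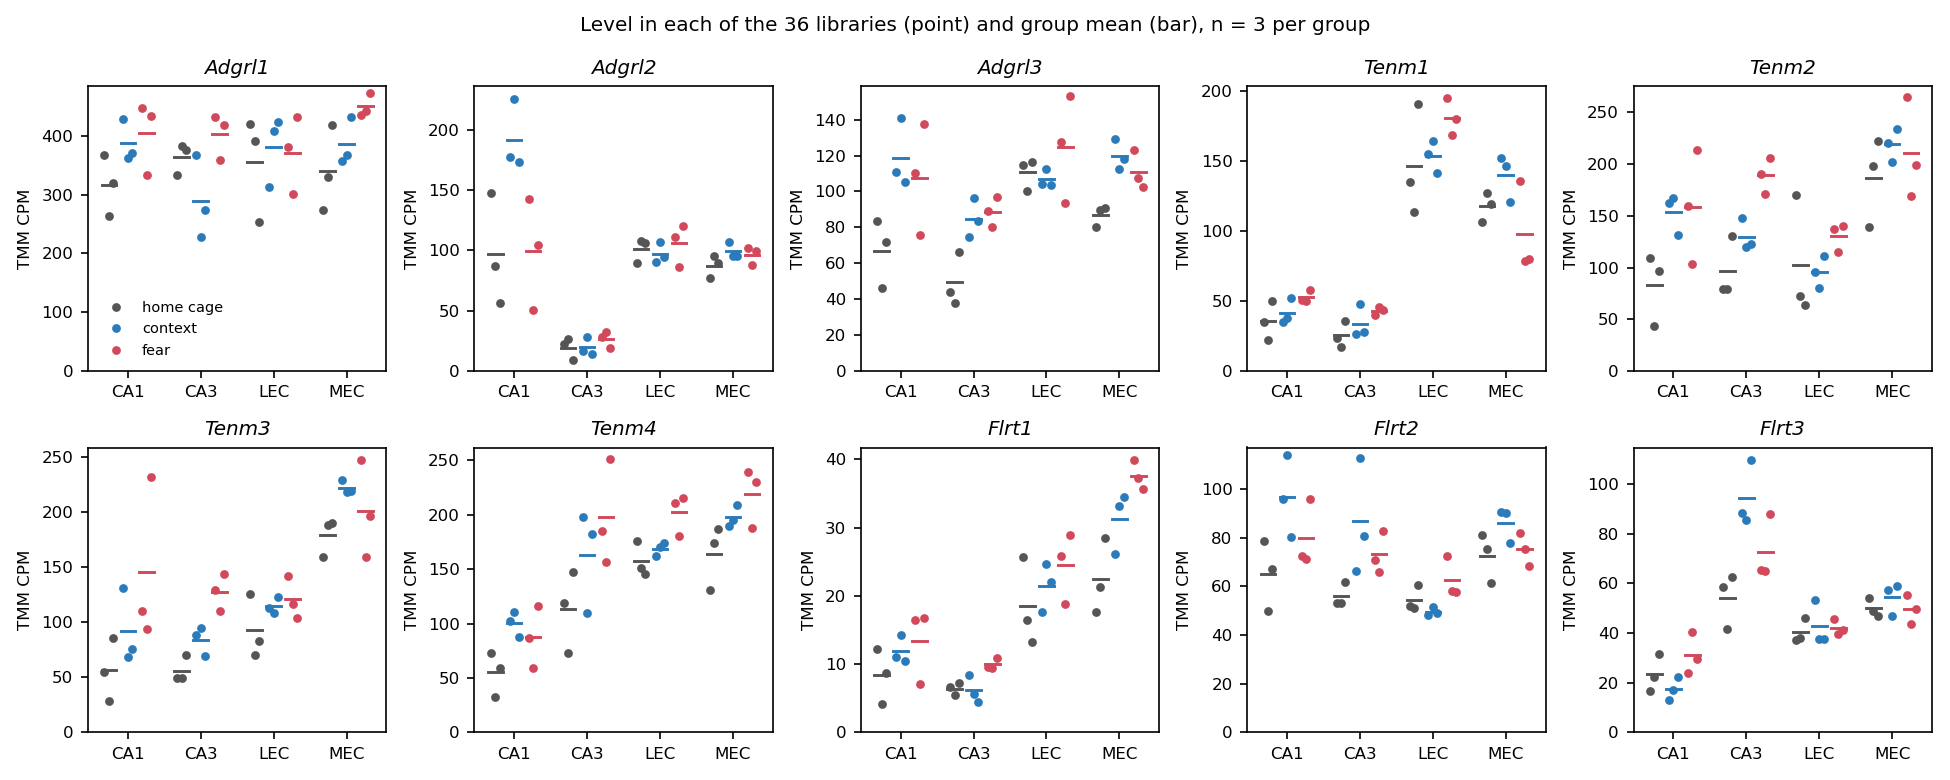
Level of each of the 10 genes (vertical axis, TMM-scaled CPM) in every library, by region (horizontal axis) and condition (colour). Points are libraries and bars are means of 3. Adgrl2 lay between 9.26 and 32.1 CPM in the CA3 libraries and between 50.9 and 226 in the CA1 libraries, whereas Adgrl1 spanned 227 to 473 CPM over all regions.

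Latrophilins differed in how far they distinguished the regions. Adgrl2 ran from 50.9 to 226 CPM in CA1 (median 142, 9 libraries), from 9.26 to 32.1 in CA3 (median 22.2), from 85.9 to 120 in LEC (median 107) and from 77.1 to 107 in MEC (median 95.5). The CA3 libraries were all below every library of the other regions. In the edgeR quasi-likelihood fit of all 36 libraries, averaged over the 3 conditions, Adgrl2 was lower in CA3 than in CA1 by a log2 difference of -2.51 ± 0.20 (SE, adjusted p = 1.1e-10). It was higher in LEC than in CA3 by 2.23 ± 0.20 (adjusted p = 1.8e-10) and in MEC than in CA3 by 2.13 ± 0.20 (adjusted p = 4.4e-10), whereas CA1, LEC and MEC did not differ past the threshold (adjusted p = 0.104 to 0.772). In bulk tissue, fewer cells of a type and less RNA per cell cannot be told apart.

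Low Adgrl2 and low CA1 pyramidal markers fell in the same CA1 libraries. The 3 CA1 libraries with Adgrl2 under 90 CPM were fear replicate 2 (50.9), home cage replicate 3 (56.6) and home cage replicate 2 (87.1). These 3 also had the lowest summed level of the 5 CA1 markers, 479.8, 461 and 329.6 CPM, against 860.0 to 1181 in the other 6. Within these 3, Adgrl2 and the markers ran in opposite order. How far the CA1 marker level accounts for Adgrl2 was not tested.

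**Figure D2:**
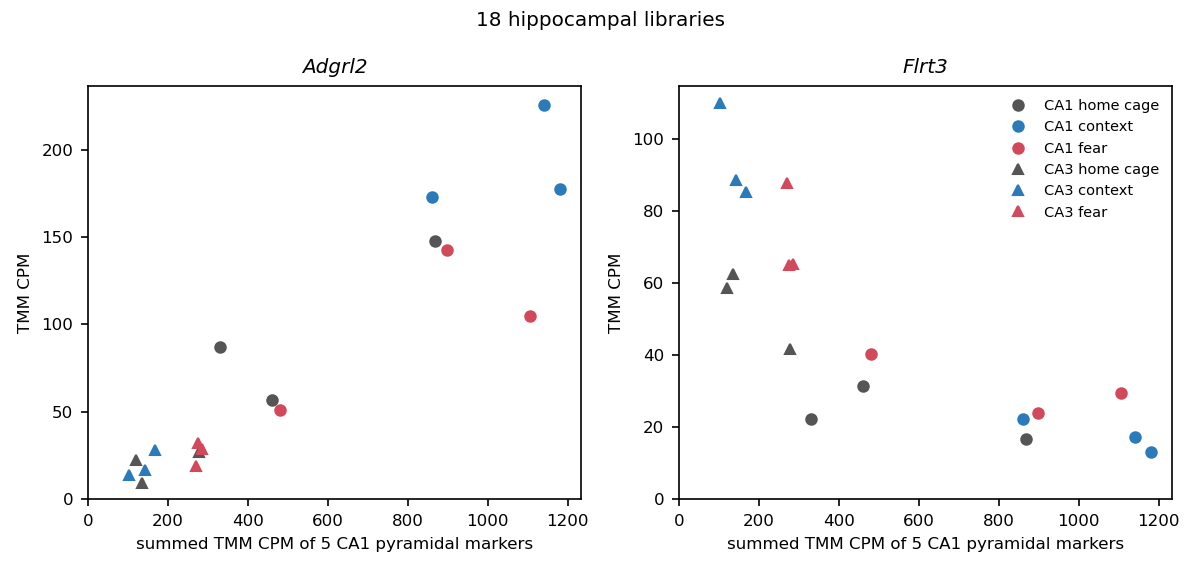
Level of Adgrl2 (left) and Flrt3 (right, vertical axes, TMM-scaled CPM) against the summed level of 5 CA1 pyramidal markers (horizontal axis, TMM-scaled CPM) in the 18 hippocampal libraries. Circles are CA1, triangles CA3 and colours conditions. The 3 CA1 libraries with 329.6 to 479.8 CPM of marker had 50.9 to 87.1 CPM of Adgrl2, and no CA3 library exceeded 32.1.

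Adgrl3 differed less. It ran from 46.0 to 141 CPM in CA1 (median 105), from 37.6 to 96.6 in CA3 (median 80.3), from 93.5 to 153 in LEC (median 113) and from 80.5 to 129 in MEC (median 107), and the range of each region overlapped that of every other. It was lower in CA3 than in CA1 by -0.40 ± 0.12 (adjusted p = 0.00772) and higher in LEC than in CA3 by 0.66 ± 0.12 (adjusted p = 2.2e-05). Adgrl1, whose highest regional mean was 1.11 times its lowest, passed the test in none of the region comparisons by edgeR (adjusted p = 0.262 to 0.974, with no unadjusted p under 0.05).

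The teneurins divided the regions in different ways. Tenm1, which is X-linked, ran from 21.8 to 58.1 CPM in CA1 (median 50.0), 17.1 to 47.8 in CA3 (median 35.9), 113 to 195 in LEC (median 164) and 78.8 to 152 in MEC (median 120). Every entorhinal library lay above every hippocampal one, and the log2 difference between the entorhinal regions and the hippocampal fields was 1.86 ± 0.11 (adjusted p = 6.4e-15). Within the entorhinal cortex Tenm1 was lower in MEC than in LEC, by -0.45 ± 0.15 (adjusted p = 0.0381), and CA1 and CA3 did not differ past the threshold (adjusted p = 0.0773). Oligodendrocyte markers moved the other way, with all 7 higher on average in each hippocampal field than in either entorhinal region (Mbp averaged 2589 CPM in CA1 and 2987 in CA3, against 481 for LEC and 834 for MEC). Of the mural and meningeal list, Dcn averaged 9.38 and 4.27 CPM against 126 and 104 in the same order. Vtn and Col1a2 were also higher in both entorhinal regions. The rest of that list was mixed, with Pdgfrb at 18.9 in CA1 and 15.8 in LEC. Rgs5 was at 79.8 in CA3, 64.7 in LEC and 56.3 in MEC. Their part in the entorhinal and hippocampal differences of the members was not tested.

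Tenm2 and Tenm3 were highest in MEC. Tenm2 ran from 139 to 264 CPM there (median 202), against 64.1 to 170 in LEC, 43.4 to 213 in CA1 and 79.3 to 206 in CA3. Tenm3 ran from 159 to 247 CPM in MEC (median 196), and its MEC libraries lay above all LEC and CA3 libraries and all but 1 of the CA1 libraries, fear replicate 3 at 231 CPM. The difference between MEC and LEC was 0.92 ± 0.18 for Tenm2 (adjusted p = 0.000408) and 0.88 ± 0.18 for Tenm3 (adjusted p = 0.000619). Neither differed between CA1 and CA3 (adjusted p = 0.797 and 0.7).

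Tenm4 was the teneurin that separated CA1 from the other 3 regions. It ran from 32.8 to 116 CPM in CA1 (median 86.9), 72.7 to 251 in CA3 (median 156), 145 to 216 in LEC (median 174) and 131 to 239 in MEC (median 190). It was higher in CA3 than in CA1 by 0.97 ± 0.15 (adjusted p = 6.1e-06), in LEC than in CA1 by 1.16 ± 0.15 (adjusted p = 1.3e-07) and in MEC than in CA1 by 1.29 ± 0.15 (adjusted p = 1.9e-08). CA3, LEC and MEC did not differ past the threshold (adjusted p = 0.0835 to 0.6).

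Among the FLRTs, Flrt3 had its highest level in CA3. It ran from 13.1 to 40.3 CPM in CA1 (median 22.2), 41.8 to 110 in CA3 (median 65.2), 37.3 to 53.3 in LEC (median 39.4) and 43.4 to 58.9 in MEC (median 49.8), with no overlap between CA1 and CA3. CA3 was above CA1 by a log2 difference of 1.62 ± 0.12 (adjusted p = 1.2e-11). LEC and MEC were below CA3, at -0.79 ± 0.12 (adjusted p = 2.2e-06) and -0.49 ± 0.12 (adjusted p = 0.00113). With home cage libraries only these were -0.44 (adjusted p = 0.168) and -0.14 (adjusted p = 0.73). By mean CPM over all conditions, Adgrl2, a receptor, was lowest and Flrt3, a ligand, highest in CA3. The receptors Adgrl1 and Adgrl3 and the ligands Tenm1, Tenm3 and Flrt1 also had their lowest mean there, not each past the threshold against CA1.

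Flrt1 was highest in MEC and lowest in CA3. It ran from 4.22 to 16.8 CPM in CA1, 4.41 to 10.9 in CA3, 13.2 to 28.9 in LEC and 17.6 to 40.0 in MEC, with entorhinal levels above hippocampal ones by 1.49 ± 0.13 (adjusted p = 1.7e-11). CA3 was lower than CA1 by -0.59 ± 0.18 (adjusted p = 0.0118), and MEC and LEC did not differ past the threshold (0.48 ± 0.17, adjusted p = 0.0513). Flrt2, which ran from 48.4 to 72.5 CPM in LEC, 61.3 to 90.6 in MEC, 49.9 to 114 in CA1 and 53.1 to 113 in CA3, was higher in MEC than in LEC (0.49 ± 0.10, adjusted p = 0.000431). It was lower in LEC than in CA1 (-0.52 ± 0.10, adjusted p = 4.2e-05).

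**Figure D3:**
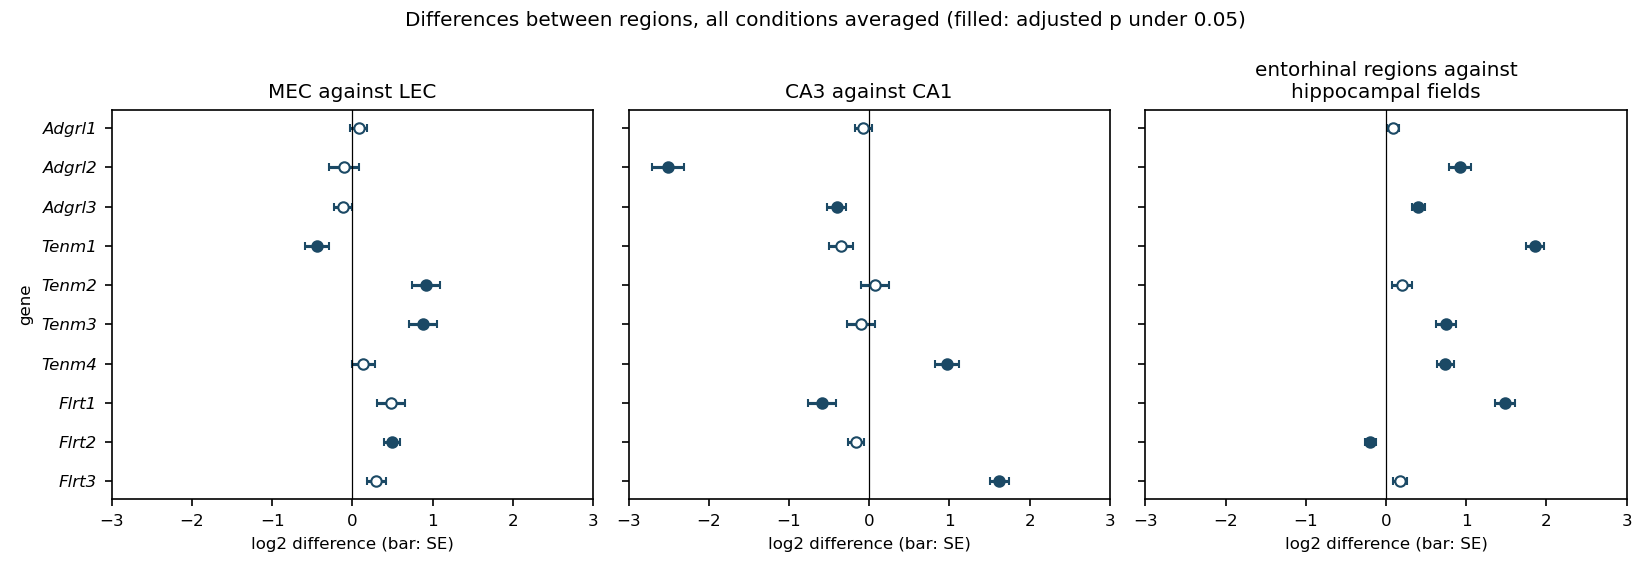
Log2 difference between regions (horizontal axis) for each of the 10 genes (vertical axis), averaged over conditions, with standard errors; filled points passed an adjusted p under 0.05. Adgrl2 (-2.51) and Flrt3 (1.62) lie farthest from 0 in CA3 against CA1, and Tenm1 (1.86) and Flrt1 (1.49) in the entorhinal regions against the hippocampal fields.

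Counted over comparisons, 5 of the 10 members differed between CA3 and CA1 (2 higher, 3 lower), against 31% of all genes tested (16.4% higher, 14.6% lower). Between MEC and LEC 4 differed (3 higher, 1 lower), against 17.4% (8.8% higher, 8.59% lower). Between LEC and CA1 5 differed (4 higher, 1 lower), against 46.6% (23.7% higher, 22.9% lower), and between LEC and CA3 6 (4 higher, 2 lower), against 39.8% (20.2% higher, 19.7% lower). Between MEC and CA1 6 differed, all higher in MEC, against 43.6% (22.8% higher, 20.8% lower), and between MEC and CA3 7 (6 higher, 1 lower), against 38.4% (19.7% higher, 18.7% lower). Between the entorhinal regions and the hippocampal fields 7 differed (6 higher, 1 lower), against 50.9% (25.5% higher, 25.4% lower). A share of members near that of all genes is not a result about the members. The median log2 difference of the members was 0.57 in the last comparison, against -0.02 over all genes tested, and -0.14 in CA3 against CA1, against -0.02.

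Some of these calls were lost in refits that left 1 replicate number out of all 12 groups, which also leaves fewer samples. Tenm1 in MEC against LEC lost its call without replicate 1 of all groups (adjusted p = 0.0915) or replicate 3 (adjusted p = 0.272), and with no filter on low counts (adjusted p = 0.0825). Adgrl3 in CA3 against CA1 lost it without replicate 1 (adjusted p = 0.236), and Flrt1 without replicate 1 or 3 (adjusted p = 0.0866 and 0.131). Flrt2 in the entorhinal regions against the hippocampal fields (-0.19 ± 0.07, adjusted p = 0.0181) lost it without replicate 2 or 3 (adjusted p = 0.0733 and 0.256), as it did in LEC against CA3 (-0.36 ± 0.10, adjusted p = 0.00365), where it then had 0.0806 and 0.0551.

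Surface partners of the 3 families were counted in the same fits, on a list that also holds the related receptor Adgrl4. The counts are to be read against the shares of all genes called. These were 31% in CA3 against CA1, 17.4% in MEC against LEC and 50.9% in the entorhinal regions against the hippocampal fields. Of the 11 genes on the list (the 4 Unc5 receptors, Robo1, Fgfr1, Nrxn2, Nrxn3, Cntn6, Dag1 and Adgrl4), 5 were higher and 2 lower in CA3 than in CA1. Unc5d and Unc5c, repulsive receptors that bind FLRTs, were higher in CA3 by 1.56 ± 0.16 (adjusted p = 9.8e-09) and 1.45 ± 0.12 (adjusted p = 4.9e-11). In MEC against LEC 1 partner was higher and 4 were lower, among them Unc5d at -1.0 ± 0.16 (adjusted p = 2.3e-05). In the entorhinal regions 3 were higher and 6 lower than in the hippocampal fields, with Cntn6 at 2.38 ± 0.12 and Fgfr1, an FLRT-binding growth factor receptor, at -1.40 ± 0.07 (adjusted p = 1.3e-17 and 2.5e-17).

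Of 8 intracellular partners (Shank and Dlg4 scaffolds and G protein subunits), 2 were higher and 2 lower in CA3 than in CA1. In the entorhinal regions 2 were higher and 4 lower than in the hippocampal fields, with Shank3 at -0.88 ± 0.13 (adjusted p = 8.0e-07). In the other region pairs the surface partners gave 5 higher and 2 lower in LEC than in CA1, 4 and 5 in LEC against CA3, 3 and 4 in MEC against CA1, and 2 and 5 in MEC against CA3. The intracellular partners gave 1 and 4, 1 and 2, 2 and 4, and 1 and 2 in the same order. The shares of all genes called in these pairs were 46.6%, 39.8%, 43.6% and 38.4%, again in that order.

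Over the 12 group means, some other genes followed a member closely. Of 12742 genes compared, Tenm4 was followed most closely by Nav3 (Pearson r = 0.989), Flrt1 by Rhobtb2 (0.988), Tenm1 by Ptprt (0.987) and Adgrl3 by Gabrb2 (0.981). Flrt3 was followed most closely by Elavl2 (0.974) and Adgrl2 by 9130024F11Rik (0.965). These are descriptions over means that share libraries and tissue makeup, and no p is given. Among the members themselves r was 0.882 for Tenm1 and Flrt1, 0.851 for Tenm2 and Tenm3, and -0.739 for Adgrl2 and Flrt3.

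In CA3, 4 members rose after context exposure against home cage: Adgrl3, Tenm3, Flrt2 and Flrt3, against 13.9% of all genes tested (5.77% higher, 8.13% lower). Each home cage, context and fear group had 3 libraries, and the fit was that of the 9 CA3 libraries. Flrt3 was 58.6, 41.8 and 62.4 CPM in the home cage, 88.4, 85.2 and 110 after context and 65.2, 65.1 and 87.7 after fear. The context libraries lay above all home cage libraries, and the log2 change was 0.79 ± 0.18 (adjusted p = 0.0450).

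Adgrl3 was 43.9, 37.6 and 66.3 CPM in the CA3 home cage libraries, 74.4, 96.5 and 83.3 after context and 89.1, 80.3 and 96.6 after fear. Context and fear libraries lay above the home cage ones, with a context change of 0.77 ± 0.19 (adjusted p = 0.0450). Flrt2 was 53.3, 53.1 and 61.9 CPM in the home cage and 66.3, 113 and 80.9 after context, without overlap and with replicate 2 highest, and changed by 0.62 ± 0.18 (adjusted p = 0.0477). Tenm3 was 48.9, 49.5 and 69.7 CPM in the home cage and 88.1, 94.7 and 69.2 after context, with replicate 3 of the context group below the highest home cage library, and changed by 0.57 ± 0.17 (adjusted p = 0.0492).

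The other 6 members in CA3 did not pass the test after context. Their log2 changes ran from -0.34 ± 0.17 for Adgrl1 (adjusted p = 0.171; 0.27 with GC and length offsets) to 0.52 ± 0.28 for Tenm4 (adjusted p = 0.199). In 3 of the 10 members (Adgrl3, Flrt2 and Flrt3) the context libraries lay above the home cage libraries without overlap, against 18.2% of all genes tested.

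All 4 calls were lost, at an adjusted p of 0.0572 to 0.182, in the 7 fits that left out context replicate 2 or 3, home cage replicate 1 or 2, or 1 of the fear libraries, and in each of these fits calls over all genes fell from 2243 to 0. The log2 changes in these fits were 0.63 to 0.85 for Flrt3, 0.61 to 0.79 for Adgrl3, 0.47 to 0.70 for Tenm3 and 0.38 to 0.67 for Flrt2. With GC and length offsets the calls were lost at 0.52 for Flrt3, 0.48 for Adgrl3 and 0.48 for Tenm3 (adjusted p = 0.0713, 0.0551 and 0.0617) and 0.16 for Flrt2 (adjusted p = 0.441), and 321 genes were called. In the same libraries the summed level of the ribosomal protein list (154 genes) was 9812 to 14896 CPM in the home cage and 7880 to 8997 after context, and 3 of 3 blood genes were lower. Interneuron markers (7 genes) summed to 446 to 497 CPM in the home cage and 598 to 699 after context, with 1 of 7 higher. Markers of neocortical and entorhinal layers (7 genes) summed to 248 to 324 and 326 to 413, with 1 of 7 higher. The exons of the members are longer (4865 to 21021 bases) than the median over the whole count table (1872 bases), which includes genes not tested. Of the 125 ribosomal list genes tested in CA3, 47 fell and 1 rose. Their part in the result was not tested.

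After fear, none of the members passed the test in CA3 by edgeR (0.00619% of all genes did), although 6 had an unadjusted p under 0.05 (18.9% of all genes did) and DESeq2 called 3 (4.08% of all genes). Tenm3 had the smallest p, 2.7e-05 unadjusted and 0.126 adjusted. It was 48.9, 49.5 and 69.7 CPM in the home cage and 129, 110 and 144 after fear, with every fear library above every home cage and every context library. Its log2 change against home cage was 1.15 ± 0.18, and against context 0.57 ± 0.17 (adjusted p = 0.150).

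All 10 log2 changes in CA3 fear against home cage were positive, with a median of 0.66, against -0.04 over all genes tested, 45.9% of which were positive. In 8 of the 10 members every fear library lay above every home cage library, against 15.3% of all genes tested, the exceptions being Adgrl1 and Adgrl2. Tenm2 was 79.6, 79.3 and 130 CPM in the home cage and 191, 171 and 206 after fear, a change of 0.93 ± 0.19 (adjusted p = 0.150). With GC and length offsets the changes were smaller, at 0.68 for Tenm2 and 0.89 for Tenm3 (adjusted p = 0.0429 for each). Tenm4 was 119, 72.7 and 148 CPM in the home cage and 185, 156 and 251 after fear, a change of 0.76 ± 0.28 (adjusted p = 0.197). Tenm1 was 23.5, 17.1 and 35.9 CPM in the home cage and 40.1, 45.7 and 43.5 after fear, a change of 0.72 ± 0.28 (adjusted p = 0.212). Ribosomal protein genes summed to 8589 to 10377 CPM after fear against 9812 to 14896 in the home cage, and interneuron markers (7 genes) to 556 to 667 against 446 to 497; their part in these values was not tested.

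Fear against context in CA3 gave no call by edgeR (0% of all genes). At an unadjusted p under 0.05 were 5 members and 23.4% of all genes, and DESeq2 called 1 member and 4.82% of all genes. Tenm2, Tenm3 and Flrt1 had fear libraries above all context libraries, against 15.6% of all genes tested. Flrt1, at 9.56, 9.42 and 10.9 CPM after fear against 8.43, 5.66 and 4.41 after context, differed by 0.66 ± 0.24 (adjusted p = 0.161).

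**Figure D4:**
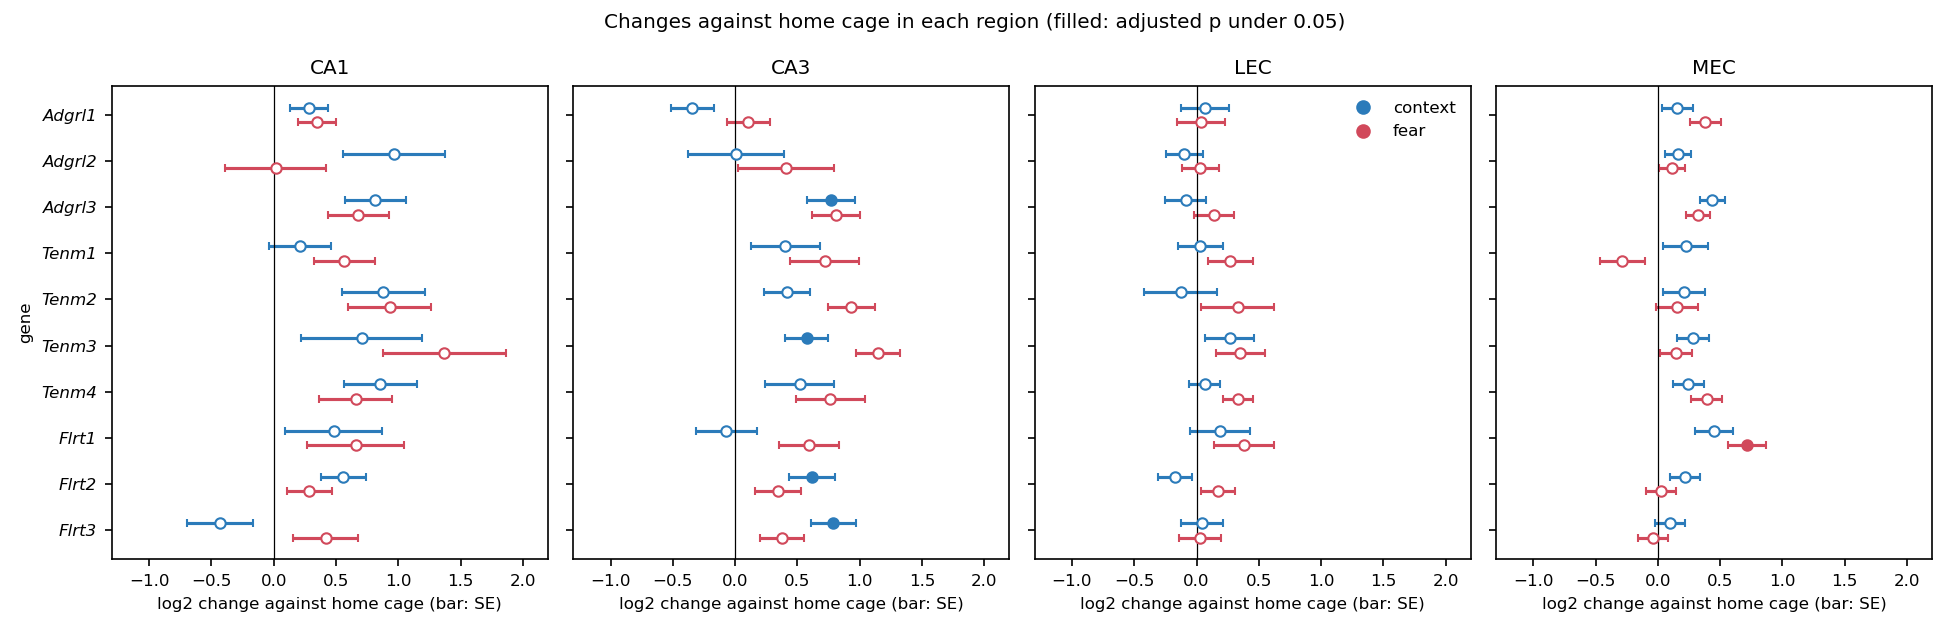
Log2 change against home cage (horizontal axis) for each of the 10 genes (vertical axis) after context and fear in each region, with standard errors; filled points passed an adjusted p under 0.05. Filled points are Adgrl3, Tenm3, Flrt2 and Flrt3 after context in CA3 and Flrt1 after fear in MEC.

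In MEC, Flrt1 rose after fear, by 0.71 ± 0.16 (adjusted p = 0.0142), and was the 1 member of 10 called, against 9.56% of all genes tested (5.68% higher, 3.88% lower). It was 17.6, 21.4 and 28.5 CPM in the home cage, 26.1, 33.2 and 34.6 after context and 40.0, 37.3 and 35.7 after fear. The fear libraries lay above all home cage and context libraries. Tenm4 was 131, 174 and 187 CPM in the home cage and 239, 188 and 230.1 after fear, and Adgrl1 274, 330.3 and 418 against 436, 442 and 473. Adgrl1, Adgrl3 and Tenm4 also had fear libraries above all home cage ones, a total of 4 of 10 members against 16.5% of all genes tested, with changes of 0.38 ± 0.12, 0.32 ± 0.10 and 0.39 ± 0.12 that missed the threshold (adjusted p = 0.0678, 0.0509 and 0.0596). With GC and length offsets the change of Adgrl1 turned to -0.058.

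The Flrt1 call was lost without fear replicate 2 or 3 (adjusted p = 0.0535 and 0.0527), without home cage replicate 2 (0.0604) and in the fit of all 36 libraries (0.202). In the same comparison 5 of 7 oligodendrocyte markers were higher, with summed levels of 1532 to 2219 CPM in the home cage and 2364 to 3285 after fear. Interneuron markers summed to 611 to 659 and 805 to 860 CPM, with 2 of 7 higher, and 32 of 130 ribosomal list genes were lower, summing to 10371 to 13897 CPM in the home cage and 8826 to 10665 after fear. Their part in the result was not tested.

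After context in MEC, no member passed the test by edgeR (0.57% of all genes did, 0.497% higher and 0.0736% lower; 3 members had an unadjusted p under 0.05, against 15.4% of all genes, and DESeq2 called 1, against 3.43%). Adgrl3 was 80.5, 89.8 and 90.8 CPM in the home cage and 129, 113 and 118 after context, without overlap. Its change of 0.44 ± 0.10 missed the threshold (adjusted p = 0.0581). With the replicate number as a block it was 0.43 ± 0.09 (adjusted p = 0.0149), though the labels give no pairing of these libraries. Tenm3 and Tenm4 also lay above the home cage libraries, a total of 3 members against 12.6% of all genes.

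Tenm1 was the member that differed most between fear and context in MEC, at 136, 78.8 and 79.7 CPM after fear and 152, 146 and 120 after context. The groups overlapped through fear replicate 1, and the difference of -0.51 ± 0.18 missed the threshold (adjusted p = 0.316). No member was called there by edgeR (0% of all genes; 1 had an unadjusted p under 0.05, against 14.7% of all genes, and DESeq2 called 0), and Adgrl1 and Flrt1 had fear libraries above all context libraries (2 of 10 members, against 12.2%).

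In CA1 no member passed the test by edgeR, nor did any other gene (0%). After context 5 members had an unadjusted p under 0.05 (21.3% of all genes) and DESeq2 called 3 (6.61%), and after fear these counts were 6 (22%) and 2 (9.02%). A refit of all CA1 libraries that blocked on replicate number gave 715 calls after fear (408 higher, 307 lower), none of them a member. Those calls rest on a pairing that the labels do not give. Between equal numbers, deviations from group means had r = 0.324, 0.439 and 0.251 for fear and home cage. For fear and context, which the refit matched too, r was -0.0509, -0.175 and -0.319. For context and home cage it was 0.348, -0.00562 and 0.297. Adgrl3 was 83.6, 46.0 and 71.6 CPM in the home cage, 111, 141 and 105 after context and 110, 75.8 and 137 after fear. The context libraries lay above all home cage ones and the fear libraries overlapped them, with changes of 0.82 ± 0.25 (adjusted p = 0.121) and 0.68 ± 0.25 (adjusted p = 0.150).

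In CA1 9 of the 10 log2 changes after context were positive (median 0.63) and 10 of 10 after fear (median 0.61), against 45.2% and 47.6% of all genes tested. With GC and length offsets Adgrl1 after fear turned from 0.35 to -0.034. Adgrl2, Adgrl3, Tenm2, Tenm4 and Flrt2 had context libraries above all home cage libraries (5 of 10 members, against 14.5% of all genes) and Tenm3 had fear libraries above them (1 of 10, against 12%). Tenm3 was 54.5, 28.4 and 85.9 CPM in the home cage and 110, 93.6 and 231 after fear, a change of 1.37 ± 0.49 (adjusted p = 0.164), with 1 fear library well above the others. Tenm2 was 109, 43.4 and 96.8 CPM in the home cage and 162, 167 and 132 after context, a change of 0.88 ± 0.33 (adjusted p = 0.181). Flrt3 was the member whose context value was negative, at -0.43 ± 0.26 (adjusted p = 0.364).

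The CA1 groups also differed in markers. The 5 CA1 pyramidal markers summed to 329.6 to 867 CPM in the home cage, 860.0 to 1181 after context and 479.8 to 1106 after fear. The 5 CA3 pyramidal markers summed to 55.9 to 198 CPM in the home cage, 44.7 to 64.5 after context and 88.5 to 278 after fear. The 6 dentate granule markers summed to 190 to 441 CPM in the home cage, 34.0 to 300 after context and 289 to 395 after fear. Interneuron markers summed to 370 to 483 CPM in the home cage against 612 to 754 and 600.0 to 738, and ribosomal protein genes to 15428 to 21482 against 11244 to 12528 and 10303 to 12772, with none of these genes called. Their part in the members' values was not tested.

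Fear against context in CA1 gave no call by edgeR (0% of all genes, with 2 members and 5.68% of all genes at an unadjusted p under 0.05 and no member called by DESeq2). Flrt3 was 13.1, 17.2 and 22.2 CPM after context and 24.0, 40.3 and 29.5 after fear, without overlap (1 of 10 members, against 7.93% of all genes), and differed by 0.85 ± 0.26 (adjusted p = 0.846). The summed CA3 pyramidal markers also did not overlap, at 44.7 to 64.5 CPM after context and 88.5 to 278 after fear. Their part in the Flrt3 difference was not tested. Adgrl2 was 177, 226 and 173 CPM after context and 142, 50.9 and 105 after fear, below without overlap (against 7.67% of all genes), and differed by -0.95 ± 0.41 (adjusted p = 0.846).

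In LEC no member passed the test in any comparison by edgeR, nor did any other gene (0%), and DESeq2 called none of the members. Unadjusted p was under 0.05 for 0 members in context against home cage (2.46% of all genes), 1 in fear against home cage (7.57%) and 2 in fear against context (1.26%). Tenm4 was 176, 151 and 145 CPM in the home cage and 211, 181 and 216 after fear, without overlap (1 of 10 members, against 6.95% of all genes), a change of 0.33 ± 0.12 (adjusted p = 0.586). Tenm1, Tenm2, Tenm4 and Flrt2 had fear libraries above all context libraries (4 of 10, against 4.48%), with Tenm2 at 137, 115 and 140 CPM against 95.5, 79.9 and 111.

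Some partners passed the test in the comparisons of conditions in which 13.9% (CA3 context) and 9.56% (MEC fear) of all genes did. After context in CA3, Unc5d and Nrxn3 rose (0.99 ± 0.25 and 0.73 ± 0.20, adjusted p = 0.0450 and 0.0457), 2 of 11 surface partners, with none lower and none called with GC and length offsets. Shank1 and Shank3, postsynaptic scaffolds, fell by 1.10 and 1.18 on the log2 scale (SE 0.29 and 0.31, adjusted p = 0.0457 for each), 2 of 8 intracellular partners. After fear in MEC 5 of 11 surface partners rose, among them Unc5b at 0.85 ± 0.17 (adjusted p = 0.0103), and 1 of 8 intracellular partners, Gnao1 at 0.39 ± 0.09 (adjusted p = 0.0180).

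Whether the response differed between regions was tested directly, and no member passed. In the interaction of region and condition (0% of all genes called by edgeR) the smallest adjusted p was 0.477, 2 members had an unadjusted p under 0.05 (10.2% of all genes) and DESeq2 called 1 (0.643%). The response to context in CA3 differed from that in CA1 by 1.22 ± 0.29 for Flrt3, the smallest p (adjusted p = 0.105), with 2 members at an unadjusted p under 0.05 (22.8% of all genes) and 1 called by DESeq2 (2.21%). The response to fear in the entorhinal regions differed from that in the hippocampal fields by -1.0 ± 0.31 for Tenm3 (adjusted p = 0.298), with 4 members at an unadjusted p under 0.05 (11.6% of all genes) and none called by DESeq2. The calls in CA3 and MEC are thus calls within a region, with no region shown to respond differently from another.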

How the data were processed

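PolyA RNA was extracted with TRIzol, and TruSeq Stranded mRNA libraries (Illumina) were made, per the labels' protocols. The authors deposited raw read counts for each gene, as whole numbers. The submitters' processing notes name Trimmomatic 0.33, STAR 2.7.10b, HTSeq 2.0.1 and the mm10 build. Neither the strand setting nor the annotation is stated in the sources used here. Adgrl1, Adgrl2, Adgrl3, Tenm1, Tenm3 and Tenm4 have exons that overlap antisense genes, so their counts could include reads of those genes. The single-sample files matched the columns of the table. Symbols came from GENCODE M21 (35449 of 37315 genes, 95.0%).

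Groups came from the tissue and treatment labels. Conditions were compared within each region (9 libraries, 3 per group) and regions in a fit of all 36 libraries, with filterByExpr, TMM and edgeR's robust quasi-likelihood test. The threshold for a call was 0.05 on p-values adjusted by the Benjamini-Hochberg method over the 16145 to 17875 genes of a fit. SE is the log2 change divided by the square root of F. The depth was 21871412 to 68974340 counts per library. In simulated data drawn from these libraries, 1.5-fold changes were recovered for 5% of genes in CA3 context against home cage and 58% in MEC fear against home cage, and 2-fold changes for 59% and 95%. Only 100 genes were changed at each fold, fewer than were called in either real comparison. The adjusted p depends on the share of changed genes, so recovery in the real data may differ. The members and lists were chosen with earlier results of these data known. All 10 members could be named in any comparison, and up to 4 called partners of each list. Some partners are not reported here, and the partner counts leave them out. For likeness, the genes with the highest r over the 12 group means were named. The ribosomal list follows symbols of the form Rpl or Rps with a number and so includes S6 kinases and pseudogenes. A list of 84 genes without these was made after the values were seen, and it also had home cage libraries above the context and fear libraries in CA1 (14990 to 21047 CPM, against 9915 to 12354). Replicate numbers were checked for pairing by correlating deviations from group means over 8197 genes, and every pair exceeded 0.1 in 2 of 12 condition comparisons (CA1 fear and MEC context against home cage) and 4 of 18 comparisons of regions within a condition (LEC and MEC after context, and CA1 and CA3, CA1 and LEC, and CA3 and LEC after fear). The labels give no pairing of replicate numbers, and how often arbitrary numbering would pass this check was not tested. Models were fitted in R 4.3.3 with edgeR 4.0.16 (on limma 3.58.1) and, as an alternative, DESeq2 1.42.0. Tables and plots were made with pandas 2.3.3 and matplotlib 3.10.9 under Python 3.11.15.

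Alternatives were RLE size factors, no filter on low counts, DESeq2, GC and length offsets (splines with 5 degrees of freedom), a replicate block, a fit of all 36 libraries, home cage libraries only, and leaving out each library. For comparisons of regions and of responses, a replicate number was left out of all groups at once, in place of single libraries. Leaving out context and home cage replicate 2 together was added after seeing the data.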

Additional observations from a re-analysis of the deposited data

How the results depend on the processing

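Depth was not varied. Of 40 called region differences, 26 kept direction and call in all their refits, 23 refits lost a call and 1 reversed. Of the 5 condition calls, 44 of 84 refits lost the call, and none kept it in all of them.

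The number of members called moved as follows, and the cause was not tested. CA1 context against home cage, 0 in the reported fit, gave 3 with DESeq2 and 3 in the fit of all 36 libraries, and CA1 fear gave 2 and 2. CA3 context, 4 as reported, gave 2 with the replicate block, 0 with GC and length offsets, 5 with both (Tenm2 and Tenm4 gained, Flrt2 lost) and 0 without both context replicate 2 and home cage replicate 2 (chosen after seeing the data), and 0 to 5 without single libraries. CA3 fear, 0 as reported, gave 2 with no filter, 2 with GC and length offsets, 5 with these and the replicate block, 3 with DESeq2, 2 in the fit of 36 libraries and 0 to 3 without single libraries. CA3 fear against context gave 1 with DESeq2 and 0 to 3 without single libraries. MEC context gave 1 with no filter, 1 with the replicate block, 1 with GC and length offsets, 1 with both and 1 with DESeq2, and 0 to 2 without single libraries. MEC fear, 1 as reported, gave 4 with no filter, 4 with the replicate block, 2 with GC and length offsets, 2 with both, 4 with DESeq2, 0 in the fit of 36 libraries and 0 to 4 without single libraries. MEC fear against context gave 0 to 1 without single libraries.

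With home cage libraries only, which leaves fewer samples, MEC against LEC gave 0 (4 as reported, 3 to 4 without a replicate) and CA3 against CA1 gave 2 (5 as reported, 3 to 6 without a replicate). Region by condition interaction gave 1 with DESeq2, and the context response of CA3 minus CA1 gave 1 with DESeq2 and 0 to 1 without a replicate.

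With GC and length offsets Adgrl1 reversed in CA1 fear (-0.034, and -0.034 with the replicate block too), CA3 context (0.27 and 0.28), CA3 fear against context (-0.22 and -0.24), MEC fear (-0.058 and -0.058), MEC fear against context (-0.077 and -0.075) and the context response of CA3 minus CA1 (0.10). Flrt2 reversed in CA3 fear against context (0.017 and 0.024). With home cage libraries only Tenm2 reversed in LEC against CA3 (0.079) and Flrt2 in the entorhinal regions against the hippocampal fields (0.049). Without replicate 1 of all groups Flrt3 reversed there (-0.0042). The cause was not tested. Replicate numbers passed the pairing check, which does not establish pairing, in CA1 fear and MEC context against home cage. Among these 2 the replicate block changed a member's call in MEC context (Adgrl3). No region call was lost with the block, and 4 were gained: Tenm1 in CA3 against CA1 (adjusted p = 0.033), Flrt1 in MEC against LEC (0.0312), Tenm4 in MEC against CA3 (0.0283) and Adgrl3 in LEC against CA1 (0.0225).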
